A study of Mus musculus with 6 samples.

Results

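The simple keratins Krt7, Krt8, Krt18 and Krt19, the adhesion genes Epcam and Cdh1, and the claudins Cldn3, Cldn4 and Cldn7 were followed in 6 mouse lung metastases of MMTV-Myc mammary tumours. The 9 genes were taken by symbol, as a set of epithelial markers, from 12393 genes that the array annotation names singly. Each was represented by the brightest probe set carrying only its symbol, out of 14 such probe sets for the 9 genes. All 9 were bright enough to pass the filter on dim probe sets described below.

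Metastases came from E2F2 knockout mice (KO, 3 arrays) and from mice heterozygous for E2F3 (Het, 3 arrays), all of the FVB strain. All carried MMTV-Myc, a transgene that puts Myc under the mouse mammary tumour virus promoter, which is active mainly in mammary epithelium. Tissue was taken at endpoint, the labels give no age, and no metastasis with wild-type E2F2 and E2F3 was analysed here. The 3 Het arrays share 1 number in their titles and may come from 1 mouse, which the labels do not state, so they were averaged into 1 sample for the test. Their metastasis numbers are 2, 1 and 3 for Het replicates 1, 2 and 3, and the 3 KO arrays carry 3 different title numbers. Values are the array signals as deposited, linear and with a trimmed mean between 500.19 and 500.20 on every array.

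Keratins of simple epithelia form the intermediate filaments of single-layered epithelial cells, each filament pairing a type II keratin (Krt7, Krt8) with a type I keratin (Krt18, Krt19). E-cadherin, the product of Cdh1, holds neighbouring epithelial cells together at adherens junctions, and Epcam is an epithelial surface glycoprotein known to bind claudin-7. Claudins are the membrane proteins that seal tight junctions, and claudin-3 and claudin-4 are known as receptors of a clostridial enterotoxin. In the mammary gland these genes mark luminal cells. Lung alveolar and airway epithelium also expresses most of them, so in a lung metastasis their signal can come from tumour and from lung.

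Repressors of the epithelial state, among them the Snail and Zeb factors, are known to bind E-boxes with the letters CACCTG. Promoter windows of 300 bases, from 250 before to 50 after the annotated RefSeq start (GRCm38.p6), were at hand for 7 of the 9 genes. None was at hand for Krt19 and Cdh1, so their promoters were not searched. On either strand, CACCTG (read as CAGGTG on the other strand) lay in a window of all 7 genes and in 7 of their 8 windows, against 20.2% of 32851 windows of all genes. The windows of Krt8 and Krt18 and of Cldn3 and Cldn4 are shown whole, because each pair are neighbours in the genome and their signals are set side by side below. Capitals mark the E-box.
Krt8, chr15:102004293-102004592, minus strand: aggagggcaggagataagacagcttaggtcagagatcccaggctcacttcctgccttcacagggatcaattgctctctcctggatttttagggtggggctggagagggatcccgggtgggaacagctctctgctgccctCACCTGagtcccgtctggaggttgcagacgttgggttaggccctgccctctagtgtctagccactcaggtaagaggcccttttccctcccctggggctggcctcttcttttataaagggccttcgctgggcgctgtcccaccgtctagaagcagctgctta
Krt18, chr15:102027966-102028265, plus strand: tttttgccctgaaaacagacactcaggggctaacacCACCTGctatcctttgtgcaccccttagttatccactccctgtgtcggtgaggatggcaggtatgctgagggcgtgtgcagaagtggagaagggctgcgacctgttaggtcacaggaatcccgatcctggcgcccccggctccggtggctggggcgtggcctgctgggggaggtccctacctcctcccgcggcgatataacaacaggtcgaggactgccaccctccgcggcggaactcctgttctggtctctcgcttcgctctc
Cldn3, chr5:134985964-134986263, plus strand: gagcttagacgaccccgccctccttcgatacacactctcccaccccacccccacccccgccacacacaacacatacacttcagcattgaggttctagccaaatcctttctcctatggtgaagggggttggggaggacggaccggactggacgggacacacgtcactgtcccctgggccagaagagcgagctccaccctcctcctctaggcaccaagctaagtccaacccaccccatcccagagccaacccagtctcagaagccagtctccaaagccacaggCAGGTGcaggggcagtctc
Cldn4, chr5:134946885-134947184, minus strand: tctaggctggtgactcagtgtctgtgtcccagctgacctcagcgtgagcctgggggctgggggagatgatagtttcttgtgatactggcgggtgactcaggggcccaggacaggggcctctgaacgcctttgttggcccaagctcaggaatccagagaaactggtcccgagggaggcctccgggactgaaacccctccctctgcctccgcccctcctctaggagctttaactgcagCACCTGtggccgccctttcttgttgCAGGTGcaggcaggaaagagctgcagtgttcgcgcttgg
For Krt7, Epcam and Cldn7, 30 bases around each E-box show where it lies. Its first base is 44 bases before the start of Krt7, 187 and 19 before that of Epcam, and 97 and 57 before 1 of the 2 starts of Cldn7. The window at the other start of Cldn7 held none.
Krt7, chr15:101412347-101412376, plus strand: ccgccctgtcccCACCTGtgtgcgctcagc
Epcam, chr17:87635780-87635809, plus strand: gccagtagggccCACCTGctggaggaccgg
Epcam, chr17:87635948-87635977, plus strand: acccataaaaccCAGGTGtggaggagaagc
Cldn7, chr11:69965312-69965341, plus strand: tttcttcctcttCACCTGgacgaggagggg
Cldn7, chr11:69965352-69965381, plus strand: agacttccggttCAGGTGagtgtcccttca
The other motifs searched on both strands, with overlapping matches counted, were less general among these genes. The GC box GGGCGG lay in 5 of 8 windows (35.7% of all windows), the Myc and Max E-box CACGTG in that of Epcam alone (7.15%), TATAAA in that of Krt8 alone (13.6%) and the AP-1 motif TGANTCA in that of Cldn4 alone (7.81%). The Grainyhead-like motif AACCNGTT (2.09%) and the E2F motifs TTTGGCGC (0.514%) and TTTCCCGC (1.07%) were not found in these windows. A match is a run of letters and says nothing about binding in these metastases.

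All 9 genes gave strong signal in each of the 6 metastases, the lowest being 552.9 for Cldn4, while the median signal of an array was between 137.6 and 164.8. Both mammary and lung transcripts were present in each sample. The milk protein gene Csn2 had signals from 12671 to 17785 in KO and from 16480 to 18776 in Het metastases, and the surfactant gene Sftpc had 5981 to 18596 in KO and 11171 to 14825 in Het metastases. Lung genes varied more among KO than among Het arrays. On the log2 scale, centred on the mean of all 6 arrays, 9 markers of alveolar type 2 cells averaged 1.56, 0.30 and -1.07 in KO replicates 1, 2 and 3 and 0.12, -0.59 and -0.32 in Het replicates 1, 2 and 3. Their summed signal was between 10173 and 59552 in KO and between 16879 and 27729 in Het metastases, no marker was at 0, and 8 of the 9 were highest in KO replicate 1. Nkx2-1 of this list was dim, with signals of 4.44 to 32.7. The actin 3' to 5' ratio, a measure of RNA quality, was 1.48 to 1.64 on KO arrays and 2.38, 1.67 and 1.73 on Het replicates 1, 2 and 3. The same ratio for Gapdh varied less, at 0.75 to 0.85 on KO arrays and 0.93, 0.90 and 0.81 on Het replicates 1, 2 and 3.

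None of the 9 genes passed the test between KO and Het metastases. With the Het arrays averaged, its SE does not take in their spread. On simulated data the same test found 0.299% of log2 changes of 1, so differences of that size would rarely pass. With limma, the adjusted p was 0.9999 for each of them, 0 of 9 passed, and 0 of 13575 probe sets tested passed (0%). At an unadjusted p under 0.05, 0 of 9 genes and 305 probe sets (2.25%) were counted. With each array as a sample, 0 probe sets passed (0%), the adjusted p of the 9 genes was between 0.480 and 0.987, and at an unadjusted p under 0.05 there were 1395 probe sets (10.3%) and 1 of the 9 genes, Cldn4. The KO and Het arrays overlapped for every one of the 9 genes, so 0 of 9 were separated, against 16.8% of all probe sets tested. Their median log2 difference (KO minus Het, on the scale log2(signal + 16)) was 0.03, against -0.02 over all probe sets tested. The median size of the difference was 0.15, against 0.18 over all probe sets tested and 0.14 over the 4152 at least as bright as Cldn4.

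Of the 9 differences, 6 were above 0 and 3 below, beside 47.7% of all probe sets above 0. With quantile normalization, 5 were above and 4 below. Without KO replicate 1, and likewise without Het replicate 1, 4 were above and 5 below, and without both 3 were above and 6 below. The 95% intervals of the differences lay between -1.27 and 1.51, so changes of that size in single genes are not excluded by these samples. In bulk tissue, fewer epithelial cells and less RNA per cell cannot be told apart.

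**Figure D1:**
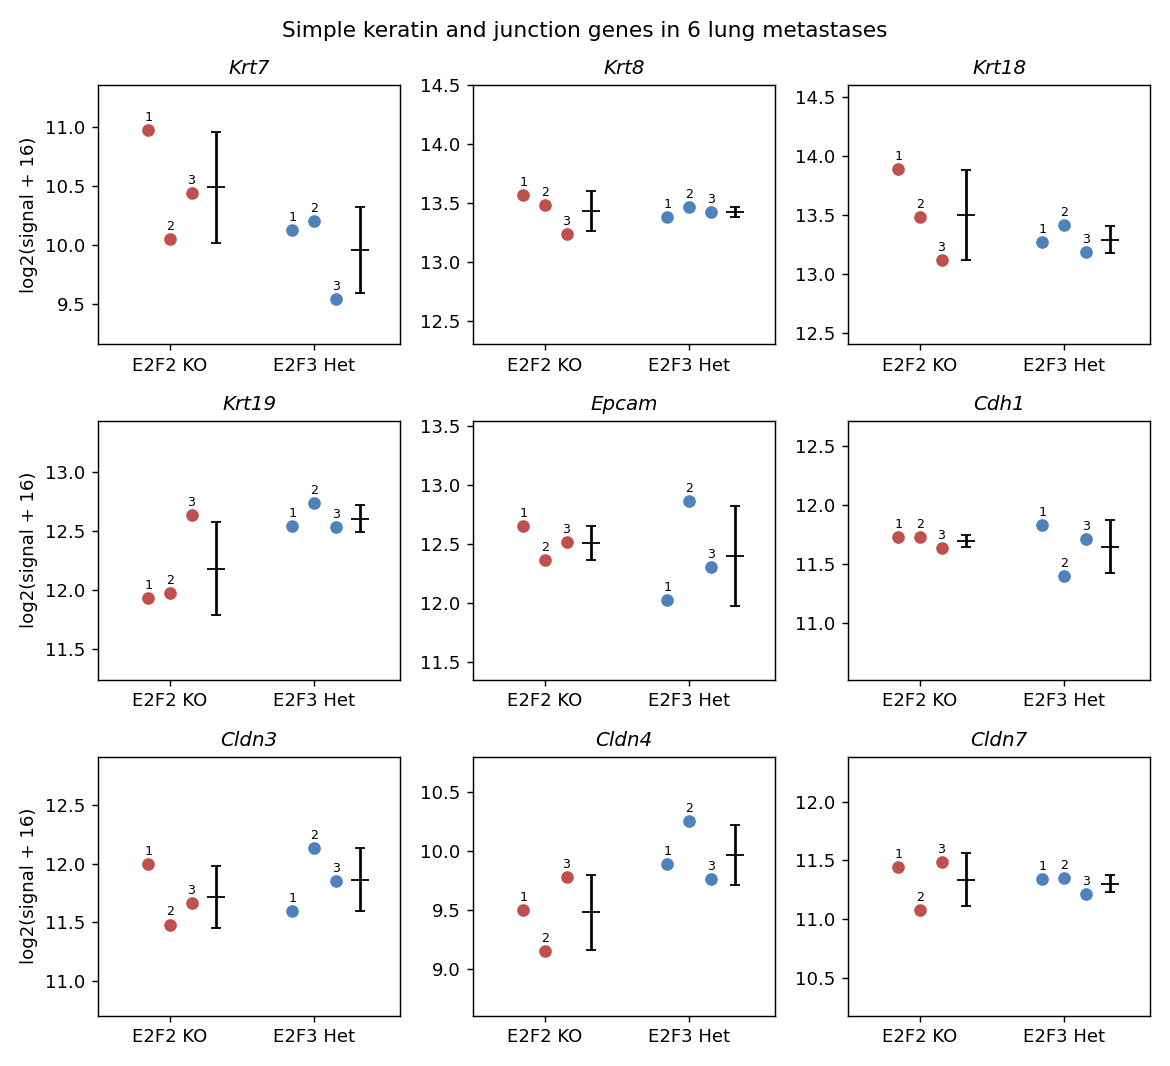
Signals of the 9 genes as log2(signal + 16), 1 panel a gene with the same span on each axis, for E2F2 KO (left) and E2F3 Het (right) metastases. Points are arrays numbered by replicate and bars show the mean ± SD of the 3 arrays. The groups overlap in each panel, and Krt8 spans the least.

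Krt8 and Krt18 form the primary keratin pair of simple epithelia. Krt8 had signals of 12113, 11425 and 9660.2 in KO replicates 1, 2 and 3, against 10637, 11285 and 10990.2 in Het replicates 1, 2 and 3. All Het values fell within the KO range. KO arrays averaged 11066 ± 1265 and Het arrays 10971 ± 324 (SD, n = 3 in each), and the log2 difference was 0.01 (SE 0.17, 95% interval -0.42 to 0.43). Its sign turned with quantile normalization (-0.02) and without KO replicate 1 (-0.06), KO replicate 2 (-0.02) or Het replicate 1 (-0.02). The other 2 probe sets of Krt8 gave 0.01 and 0.04, and both carry the suffix that marks probes shared with other sequences. Highest over lowest array was 1.25-fold for Krt8, the narrowest range of the 9 genes, and its SD over the 6 arrays (0.11) was larger than that of 6.98% of all probe sets tested.

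Krt18, the type I partner, had signals of 15158, 11452 and 8895 in KO replicates 1, 2 and 3, against 9869, 10883 and 9306 in Het replicates 1, 2 and 3. KO replicate 1 was the highest and KO replicate 3 the lowest array, as for Krt8. The log2 difference was 0.21 (SE 0.30, 95% interval -0.54 to 0.95), and it was 0.01 without KO replicate 1. The alveolar type 2 markers were also highest in KO replicate 1 and lowest in KO replicate 3, and their part in the Krt8 and Krt18 signals was not tested. Krt8 and Krt18, with 2 genes and 0 protein-coding genes between them on chromosome 15, ordered the KO arrays alike. The Krt18 range was wider, with highest over lowest at 1.70-fold.

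Krt7, a type II keratin of ducts and glands, had signals of 1998, 1039.9 and 1369 in KO replicates 1, 2 and 3, against 1101, 1163 and 727 in Het replicates 1, 2 and 3. KO replicate 1 stood above the other arrays and Het replicate 3 below them. KO arrays averaged 1469 ± 487 and Het arrays 997 ± 236 (SD, n = 3 in each), and the log2 difference was 0.53 (SE 0.39, 95% interval -0.45 to 1.51). This was the widest range of the 9 genes, 2.75-fold from lowest to highest array. The difference was 0.29 without KO replicate 1, the array with the highest alveolar values, and 0.32 without Het replicate 3.

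Krt19, a type I keratin without the usual tail domain, had signals of 3899, 4007 and 6345 in KO replicates 1, 2 and 3, against 5967, 6821 and 5910 in Het replicates 1, 2 and 3. KO replicates 1 and 2 lay below all Het arrays, whereas KO replicate 3 lay among them. KO arrays averaged 4751 ± 1382 and Het arrays 6233 ± 510.2 (SD, n = 3 in each), and the log2 difference was -0.42 (SE 0.32, 95% interval -1.22 to 0.37). It was -0.65 without KO replicate 3. Krt19 was lowest in KO replicate 1, where Krt7, Krt8 and Krt18 were highest. The 4 simple keratins therefore did not share 1 order of arrays.

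**Figure D2:**
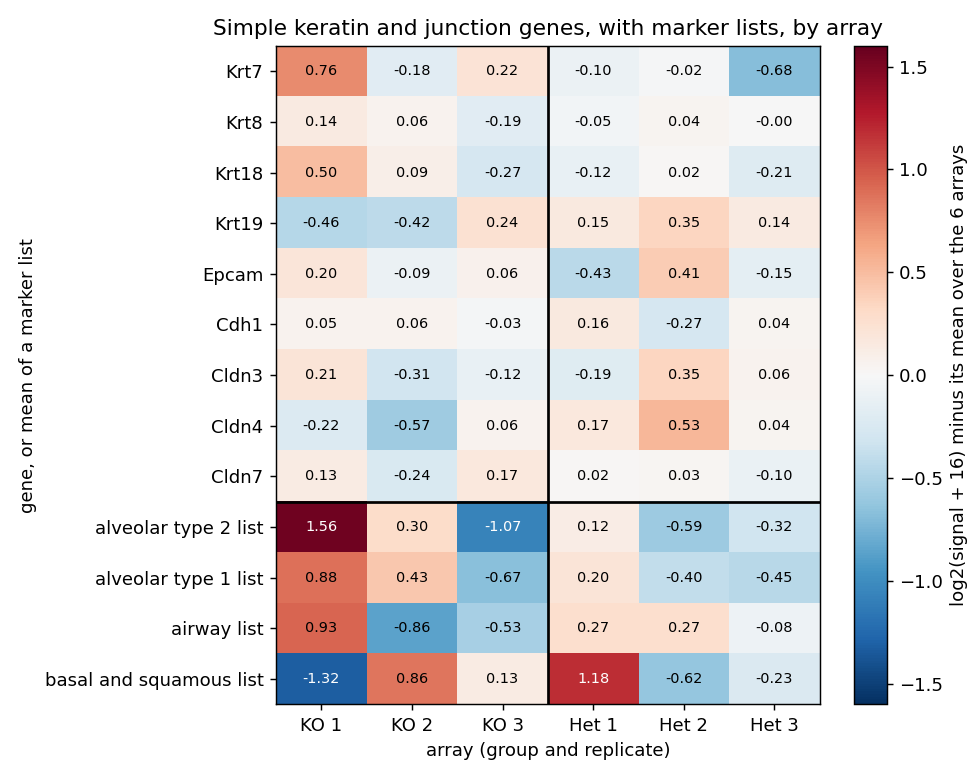
Each cell gives log2(signal + 16) minus its mean over the 6 arrays, for the 9 genes (top) and the means of 4 marker lists (bottom), with KO arrays left of Het arrays. Krt7, Krt8 and Krt18 are highest in KO replicate 1, at 0.76, 0.14 and 0.50, where the alveolar type 2 list is at 1.56, while Krt19 is at -0.46.

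Krt5, a keratin of basal epithelial cells, varied far more between the same arrays. It had signals of 44.0, 1907 and 959 in KO replicates 1, 2 and 3, against 1704, 395 and 583 in Het replicates 1, 2 and 3. The list of 9 basal and squamous markers, 6 of them keratins, averaged -1.32, 0.86 and 0.13 in KO and 1.18, -0.62 and -0.23 in Het metastases as centred log2 values. On the same scale, single values of the 4 simple keratins lay between -0.46 and 0.76 in KO and between -0.68 and 0.35 in Het metastases. The keratin Krt10 of that list spanned only 1.36-fold from lowest to highest array, less than Krt7, Krt18 or Krt19. The difference in range between the lists was not tested.

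Epcam had signals of 6427, 5258 and 5857 in KO replicates 1, 2 and 3, against 4158, 7450.0 and 5038 in Het replicates 1, 2 and 3. The KO arrays lay close together, between the lowest and the highest Het array. The log2 difference was 0.11 (SE 0.18, 95% interval -0.34 to 0.57), and it was -0.07 without Het replicate 1, the array with the highest actin 3' to 5' ratio, and 0.35 without Het replicate 2. Cdh1 had signals of 3367, 3372 and 3169 in KO replicates 1, 2 and 3, against 3629.5, 2682 and 3336 in Het replicates 1, 2 and 3. Both genes therefore spread more among the Het arrays, and Cdh1 was lowest in Het replicate 2, where Epcam was highest. The Het arrays were averaged for the test, so their larger spread does not enter the SE of either gene. The difference for Cdh1 was 0.05 (SE 0.18, 95% interval -0.40 to 0.49), turning to -0.08 without Het replicate 2.

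Claudin-3 and claudin-4 are encoded by neighbouring genes on chromosome 5, with 0 annotated genes between them. Cldn3 had signals of 4072, 2845 and 3227 in KO replicates 1, 2 and 3, against 3086, 4479 and 3672 in Het replicates 1, 2 and 3. Cldn4 had 708.2, 552.9 and 865 in KO replicates 1, 2 and 3, against 933, 1204 and 853 in Het replicates 1, 2 and 3. Both were highest in Het replicate 2 and lowest in KO replicate 2. For Cldn4, the KO and Het arrays overlapped only through KO replicate 3, which lay just above Het replicate 3. Its log2 difference of -0.49 (SE 0.31, 95% interval -1.27 to 0.29) was the lowest of the 9 and stayed between -0.64 and -0.33 when single arrays were left out. With each array as a sample, its limma p was 0.047 unadjusted and 0.480 adjusted.

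The log2 difference of Cldn3 was -0.15 (SE 0.25, 95% interval -0.78 to 0.49), and -0.01 without Het replicate 2. Its 4 probe sets did not all point one way, with the other 3 at -0.24, -0.12 and 0.08. The brightest and the third carry the suffix that marks probes shared with other sequences. Cldn7, whose product is known to bind Epcam, had signals of 2776, 2142 and 2857 in KO replicates 1, 2 and 3, against 2578, 2591 and 2366 in Het replicates 1, 2 and 3. The Het arrays fell within the KO range, and the log2 difference was 0.03 (SE 0.24, 95% interval -0.58 to 0.65). Leaving out KO replicate 1 gave -0.02, KO replicate 3 gave -0.04 and Het replicate 3 gave -0.01.

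**Figure D3:**
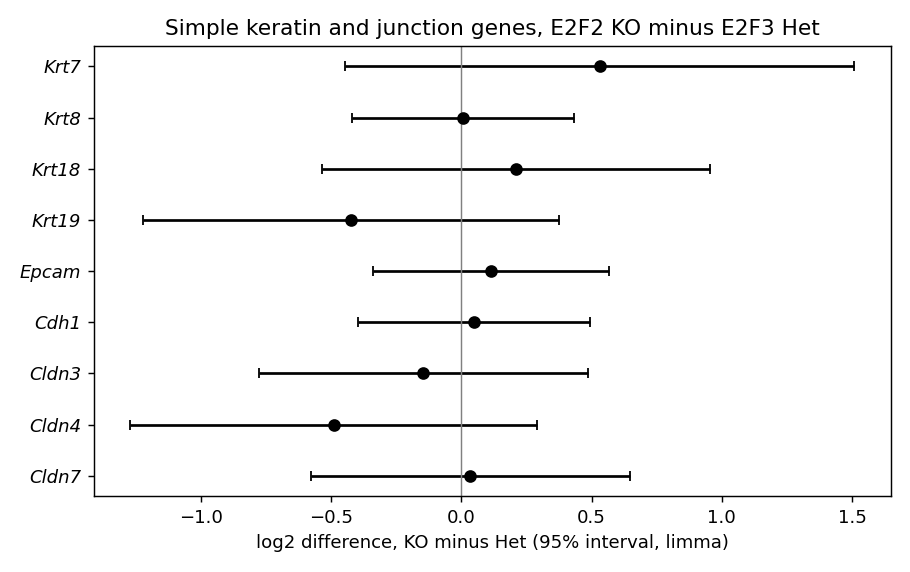
Log2 differences of the 9 genes, KO minus Het, with 95% intervals from limma (3 KO samples against the mean of 3 Het arrays). Points run from -0.49 for Cldn4 to 0.53 for Krt7, and each interval includes 0.

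The likeness of 2 genes was measured as the root mean square difference between their centred log2 values over the 6 arrays. Among the 36 pairs of the 9 genes it was smallest for Krt19 with Cldn4 (0.161), Krt8 with Cdh1 (0.170), Krt8 with Krt18 (0.175) and Epcam with Cldn3 (0.177). It was largest for Krt7 with Krt19 (0.633) and Krt7 with Cldn4 (0.582). The genomic neighbours Krt8 and Krt18 were thus among the closest pairs, whereas the neighbours Cldn3 and Cldn4 were further apart (0.275). A small value also comes with a narrow range, as for Krt8 and Cdh1, whose orders of arrays differed.

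Averaged over the 9 genes, the centred log2 value was 0.14, -0.18 and 0.01 in KO replicates 1, 2 and 3, against -0.04, 0.16 and -0.10 in Het replicates 1, 2 and 3. Among 7961 other genes tested, the nearest to this mean over the 6 arrays were Cttn (0.024), which encodes the actin-binding protein cortactin, Ccdc43 (0.031), Nup88 (0.038), a nuclear pore gene, Dsg2 (0.045), which encodes a desmosomal cadherin, and Ddb2 (0.047), a DNA damage recognition gene. The median over these genes was 0.251.

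The spread within groups differed from gene to gene. The SD over KO arrays exceeded that over Het arrays for 6 of the 9 genes, against 59.6% of all probe sets tested. For Krt18 the SD on the log2 scale was 0.38 in KO and 0.11 in Het metastases, for Krt19 0.39 and 0.12, and for Cldn7 0.23 and 0.07. Epcam and Cdh1 went the other way, with 0.14 in KO and 0.43 in Het metastases for Epcam and 0.05 and 0.22 for Cdh1. Over all 6 arrays the median SD of the 9 genes was 0.28, against 0.25 over all probe sets tested and 0.20 over the 4152 at least as bright as Cldn4. The Het arrays may share a mouse, and the KO arrays carry different numbers, so mouse and genotype cannot be told apart in these spreads.

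**Figure D4:**
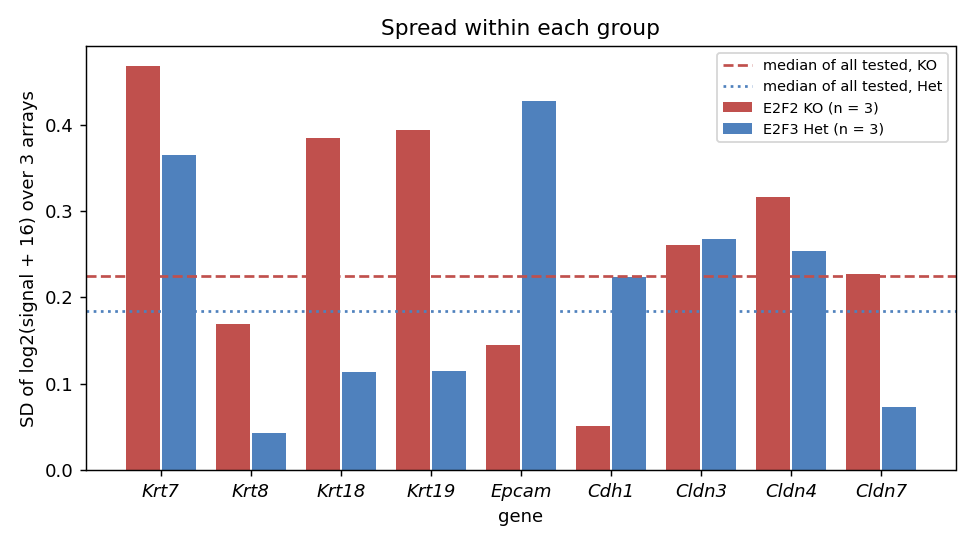
SD of log2(signal + 16) over the 3 arrays of each group, KO left of Het for each gene, with lines at the median over all probe sets tested (0.23 in KO, dashed, and 0.18 in Het, dotted). Krt18 and Krt19 spread more in KO, Epcam and Cdh1 more in Het.

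Other claudins were mostly dim. Of 14 on the array 5 were tested, 4 of them above 0 and 1 below, with 0 passing limma. Their median difference was 0.34, and 0.06 without KO replicate 1. Cldn2, a pore-forming claudin, had signals of 538.5, 207 and 93.6 in KO replicates 1, 2 and 3, against 72.3, 80.4 and 119 in Het replicates 1, 2 and 3, a log2 difference of 1.19 (SE 0.86) that ran from 0.58 to 1.75 when single arrays were left out. The endothelial claudin Cldn5, highest in KO replicate 1 like the other endothelial markers, was at 0.34 (SE 0.56), and Cldn8 was at 0.16 (SE 0.24). Cldn2 and Cldn5 ordered the KO arrays as the alveolar type 2 markers did, and the part of lung tissue in these values was not tested. Among other simple and ductal keratins, 1 of 3 on the array was tested, Krt80, at 0.22 (SE 0.30).

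Tight junction and polarity partners were below 0 in 12 of 15 genes tested (11 of 15 with quantile normalization), with a median difference of -0.15 and 0 passing limma. The arrays did not overlap for 3 of them, all lower in KO, beside 8.89% of all probe sets tested lower in this way. Tjp3, which encodes the scaffold protein ZO-3, had signals of 182, 267 and 296 in KO replicates 1, 2 and 3, against 434, 479 and 404.5 in Het replicates 1, 2 and 3. Every KO array lay below every Het array, at -0.81 for KO minus Het in log2 (SE 0.33), and the limma adjusted p was 0.9999. Marveld2, encoding tricellulin, was at -0.38 (SE 0.33), and between -0.52 and -0.19 with single arrays left out. The cingulin relative Cgnl1 was at 0.84 (SE 0.64), and between 0.51 and 1.32. The median of the list was -0.09 without KO replicate 2.

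Adherens junction partners were below 0 in 6 of 8 genes, with a median difference of -0.12. The median was -0.04 without KO replicate 3 (5 of 8 below 0) and -0.05 without Het replicate 1, and 8 of 8 were below 0 without KO replicate 1. The catenin genes Ctnnb1 (beta-catenin) and Ctnnd1 (p120-catenin) were at -0.10 (SE 0.15) and -0.23 (SE 0.27), the second between -0.56 and 0.07 with single arrays left out, and the actin linker Vcl was at -0.16 (SE 0.20). Desmosome genes and keratin linkers were below 0 in 6 of 9, with a median of -0.06 that ran from -0.10 without Het replicate 3 to -0.04 without Het replicate 1. The linker of keratin to desmosomes, Dsp, had signals of 1127, 2882 and 2104 in KO replicates 1, 2 and 3, against 2544, 642 and 953 in Het replicates 1, 2 and 3. Its groups overlapped widely, with Het replicate 1 near the top of the KO range, and the difference was 0.70 (SE 0.52), between 0.28 and 1.26 when single arrays were left out. The plakophilins Pkp2 and Pkp3 were at -0.44 (SE 0.31) and -0.27 (SE 0.24). In both lists 0 genes passed limma. The arrays did not overlap for 1 gene of each list, Vcl and Pkp2, both lower in KO like 8.89% of all probe sets tested.

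Epithelial membrane proteins were below 0 in 8 of 11 genes (7 of 11 with quantile normalization), with a median of -0.03 and 0 passing limma. Neither held without single arrays: without Het replicate 3, 5 of 11 were below 0 and the median was 0.0027, and without Het replicate 2 the median was -0.17. Rab25, a GTPase of epithelial vesicle recycling, had signals of 1234, 1171 and 1208 in KO replicates 1, 2 and 3, against 997, 1022 and 951 in Het replicates 1, 2 and 3. It was the 1 gene of the list whose arrays did not overlap, higher in KO like 7.87% of all probe sets tested, with a difference of 0.28 (SE 0.21; limma adjusted p = 0.9999). The membrane protease gene St14 was at -0.25 (SE 0.24) and Marveld1 at -0.53 (SE 0.38).

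Transcription and splicing regulators of epithelial identity were below 0 in 9 of 9 genes tested, with a median log2 difference of -0.40, against -0.02 over all probe sets tested, and 0 passing limma. That median was -0.18 both without KO replicate 1 (7 of 9 below 0) and without Het replicate 1 (8 of 9 below 0). On the scale log2(signal + 64) it was -0.20. Without the filter on dim probe sets, 9 of 10 were below 0, with a median of -0.30. The gene above 0 was the dim Ovol2, with signals of 75.1 to 103 in KO and 43.5 to 61.9 in Het metastases (0.61). Esrp2, which directs epithelial splicing, had signals of 791, 767 and 908 in KO replicates 1, 2 and 3, against 1091, 1160.3 and 1052 in Het replicates 1, 2 and 3. These arrays did not overlap, and the difference was -0.42 (SE 0.23). Klf5 was at -0.64 (SE 0.32) and the ETS factor gene Ehf at -0.40 (SE 0.22). Cdh1, which some of these factors are known to activate, was at 0.05. Luminal mammary markers lay below 0 in 7 of 9 genes tested, with a median of -0.72. Of these 9, 0 passed limma and 2 had an unadjusted limma p under 0.05 (2.25% of all probe sets tested). The summed signal of the luminal markers was between 42986 and 64046 in KO and between 64106 and 69888 in Het metastases, with no marker at 0. The milk protein genes Csn2 (12671 to 18776) and Csn3 (15725 to 21105) weigh most in this sum, which is no count of cells. Esr1, Pgr and Cited1 reached only 39.0, 13.9 and 6.64 and were left out by the filter. The arrays of Gata3 did not overlap, lower in KO (-1.06) like 8.89% of all probe sets tested. Those of Foxa1 did not overlap either, higher in KO (1.08) like 7.87%. The part of these cells in the values of the regulators was not tested.

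Among repressors of Cdh1 and mesenchymal counterparts, 4 of 8 genes were bright enough to test, 2 above and 2 below 0, with 0 passing limma. Zeb2, a repressor that binds the E-box printed above, had dim signals of 159, 127 and 85.7 in KO replicates 1, 2 and 3, against 74.8, 35.7 and 63.5 in Het replicates 1, 2 and 3. Every KO array lay above every Het array, with a difference of 0.92 (SE 0.42; limma adjusted p = 0.9999). Zeb1, the other Zeb gene of the list, was at -0.08 (SE 0.70), and its arrays overlapped. Tcf3 was at -0.23 (SE 0.28) and vimentin (Vim) at 0.32 (SE 0.40). Zeb2 was highest in KO replicate 1, as were 8 of 9 alveolar type 2 and 9 of 9 endothelial markers, and the part of lung tissue in its signal was not tested. Fibroblast markers were above 0 in 6 of 7 genes tested, with a median of 0.57. Of these 7, 0 passed limma and 1 had an unadjusted limma p under 0.05 (2.25% of all probe sets tested). In 4 of the 7, Col1a1, Col1a2, Col3a1 and Dcn, every KO array lay above every Het array. This also held for Zeb2 and for 7.87% of all probe sets tested, and Dcn ordered the 6 arrays exactly as Zeb2 did. The summed fibroblast signal was between 7781 and 10807 in KO and between 6705 and 7188 in Het metastases, with no marker at 0, and the part of fibroblasts in the Zeb2 signal was not tested. The 7 genes whose windows hold the E-box had differences of 0.53 (Krt7), 0.01 (Krt8), 0.21 (Krt18), 0.11 (Epcam), -0.15 (Cldn3), -0.49 (Cldn4) and 0.03 (Cldn7).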

How the data were processed

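RNA of 6 lung metastases was measured on Affymetrix mouse arrays. The deposited values were probe set intensities on a linear scale, scaled by the authors to a common trimmed mean. The submitters' processing notes name MAS5 and Affymetrix Expression Console; versions, detection calls and a genome build are not given in the sources used here, and no coordinates are given beyond those of the RefSeq promoter windows. Array number limits the precision, and no sequencing depth applies.

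Of 22690 probe sets, 64 controls and the 40% with the lowest mean signal were left out, which kept 13575. The platform annotation gave 1 symbol for 20380 probe sets, of which 20351 matched a GRCm38.p6 gene table through the Entrez ID. Signals were taken as log2(signal + 16), which understates changes of dim genes. The 3 Het arrays, sharing a title number, were averaged into 1 sample and set against 3 KO samples with limma 3.58.1 in R 4.3.3 (eBayes with a trend, Benjamini-Hochberg over all probe sets, threshold 0.05). Its SE takes the spread of the KO samples for the single Het sample too. Separate animals are not stated, so p-values measure only the spread between these samples, which may be technical.

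The 9 genes and all lists were chosen with earlier results of these data known. Beside the 9, up to 3 genes with the largest moderated t were named from each list of junction, keratin and regulator genes, and 5 genes by likeness to the mean of the 9. Krt5, Csn2 and Sftpc were named in addition as markers. Lists of luminal, lung, mesothelial, basal, endothelial, fibroblast and leukocyte markers had 0 genes passing limma. The median differences largest in size were -0.72 for luminal, 0.63 for alveolar type 2 and 0.57 for fibroblast markers. Gata3, Foxa1, Ovol2, Zeb1, Krt10, Cldn18, Csn3, Esr1, Pgr, Cited1, Nkx2-1 and the 4 fibroblast genes were named after their values were seen.

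On simulated data (13575 probe sets), the share found was 0.299% at a log2 change of 1, 9.55% at 2 and 37.9% at 4, and, where each array counted as a sample, 50.4%, 77.9% and 94.5%. All arrays were drawn as independent, with the SD of the KO arrays. The shares with each array as a sample therefore assume Het arrays that share no mouse, which is not known here. Other settings changed the replicate unit, pseudocount, filter, normalization, probe set rule and the arrays used.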

Additional observations from a re-analysis of the deposited data

How the results depend on the processing

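No probe set passed limma in any of the 15 other fits (0 in each), with 157 to 1395 at an unadjusted p under 0.05. The median difference of the 9 genes was 0.03 and ran from -0.02 to 0.08 when single arrays were left out. Of 144 differences of the 9 genes under other settings, 14 changed sign and 130 kept their direction, and none passed the threshold. Settings that changed only the filter or the replicate unit left the difference itself unchanged, so no sign could turn there. The same held for the probe set rule in genes with a single probe set. The 130 therefore include differences whose direction was fixed beforehand. Krt8 was at -0.022 with quantile normalization. Arrays were left out singly and in 2 pairs, KO replicate 1 with Het replicate 2 and KO replicate 1 with Het replicate 1, the second pair chosen after seeing the data. Over these settings Krt8 ran from -0.084 to 0.10, Epcam from -0.14 to 0.35, Cdh1 from -0.090 to 0.14 and Cldn7 from -0.041 to 0.17. Among the other named genes, Cldn5 ran from -0.077 to 0.75, Ctnnd1 from -0.56 to 0.073, Tcf3 from -0.37 to 0.076, Cttn from -0.12 to 0.096, Ccdc43 from -0.12 to 0.052, Nup88 from -0.17 to 0.024, Dsg2 from -0.10 to 0.063 and Ddb2 from -0.18 to 0.036. The cause of these sign changes was not tested. With single arrays left out and no change of sign, Krt7 ran from 0.29 to 0.75, Krt18 from 0.01 to 0.40, Krt19 from -0.65 to -0.30 and Cldn3 from -0.29 to -0.0097. Likewise Cldn8 ran from 0.02 to 0.33, Krt80 from 0.06 to 0.51, Ctnnb1 from -0.14 to -0.04, Pkp2 from -0.56 to -0.26, St14 from -0.35 to -0.15, Marveld1 from -0.69 to -0.26, Klf5 from -0.81 to -0.41 and Vim from 0.17 to 0.62. No paired analysis was possible because the replicate numbers are those of accession order and pair no samples. In a fit that treated arrays with 1 title number as a random block, 0 probe sets passed and the fitted correlation was 0.31. The number of arrays limits what can be detected, and the signal over background of dim probe sets is not known here.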
